A study of Mus musculus with 6 samples.

Results

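The non-clustered protocadherins, also called delta protocadherins, were examined in the RNA-seq of somatosensory cortex from control and *Mef2c* cKO mice. They were taken by gene symbol, *Pcdh1*, *Pcdh7*, *Pcdh9* and *Pcdh11x* (delta-1), *Pcdh8*, *Pcdh10*, *Pcdh17*, *Pcdh18* and *Pcdh19* (delta-2) and *Pcdh20*, and all 10 had a row among the 21667 named genes of every deposited table. The 3 control mice carried the floxed *Mef2c* gene on both alleles (Mef2cfl/fl) and no Cre, and the 3 *Mef2c* cKO mice carried the same floxed alleles and Emx1-Cre (Mef2cfl/fl; Emx1-Cre). The floxed alleles are therefore shared by both groups, and Cre was present in the cKO group alone. All 6 mice were males of a mixed SVeV-129; C57BL/6J background, aged 14 weeks for replicate 1 of each genotype and 12 weeks for replicates 2 and 3. Because Cre is expressed from the *Emx1* locus, recombination begins in the embryo, long before RNA was taken, and is limited to the Emx1 lineage, mainly excitatory neurons and a part of the glia. Interneurons and other cells of the tissue kept *Mef2c*. The question was which of these adhesion genes differ in RNA level when *Mef2c* is lost from that lineage.

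Protocadherins are single-pass membrane proteins with cadherin repeats outside the cell, which bind mainly the same protein on the facing cell, and a cytoplasmic tail that carries the signal inward. The clustered protocadherins are encoded side by side in large gene arrays, whereas the non-clustered ones are separate genes, each with its own promoter. The delta-1 proteins have a longer extracellular part and a tail motif that binds protein phosphatase 1, and several delta-2 proteins bind the WAVE complex, which starts branched actin assembly. In brain they are known for roles in axon growth, neurite sorting and the removal of synapses, and MEF2 factors are transcription factors switched on by neuronal activity that act in that last process.

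The unit used throughout is CPM, the reads of a gene per 1000000 reads assigned to genes in the same mouse. The authors deposited RPKM, which should be CPM divided by gene length in kilobases. The length behind the deposited values was not the gene's own, and it differed between mice. For *Pcdh17* the deposited RPKM were 12.0, 4.82 and 11.8 in control replicates 1, 2 and 3 and 1.94, 32.9 and 2.37 in *Mef2c* cKO replicates 1, 2 and 3, and the lengths behind them were 6045, 12678 and 5714 bases in the controls and 82557, 3518 and 60003 bases in the cKO mice. Across the members the longest length was between 6.88 times (*Pcdh10*) and 145 times (*Pcdh9*) the shortest. Whole read counts were recovered from these values for every member in every mouse. All 60 products of value, length and total lay within 0.01 of a whole number. The lengths were chosen to give whole reads, and a gene was placed only where its values were whole. This closeness is therefore no independent check of the recovery. The recovered counts of all genes added up to 99.99% of the total in each mouse.

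**Figure D1:**
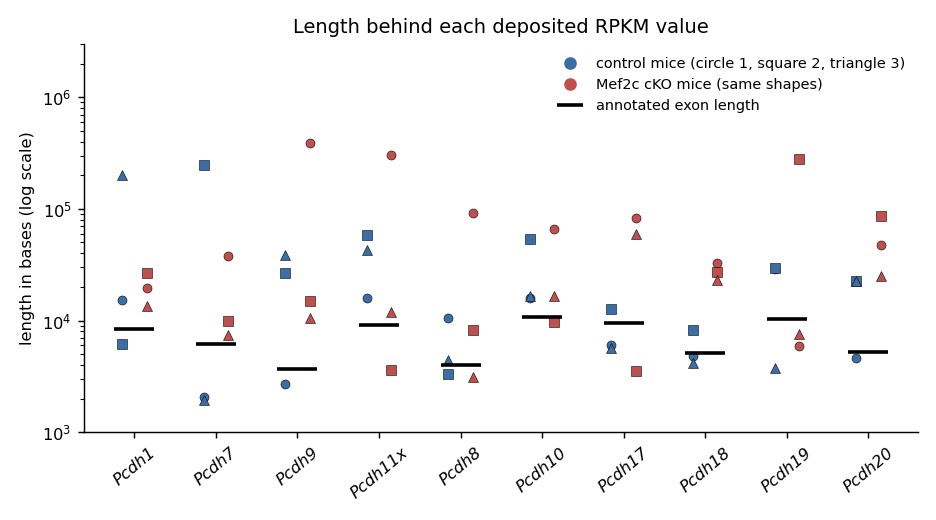
Length in bases (log axis) by which the reads of each member were divided in the deposited RPKM of each mouse; blue points are control and red points *Mef2c* cKO mice, with shapes for the replicate numbers, and black bars are the exon length of the gene in the mm9 annotation. The points of 1 gene spread over 6.88-fold (*Pcdh10*) to 145-fold (*Pcdh9*), which is why the deposited values of different mice could not be compared directly.

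The recovered totals ranged from 19326365 to 54128334 reads per mouse, with *Mef2c* cKO replicate 2 the shallowest. Log2 CPM over the 14624 tested genes correlated between mice at a Pearson r of 0.9916 to 0.9947 within a genotype and of 0.9783 to 0.9808 between genotypes. *Emx1*, whose locus carries the Cre insertion, was at 16.5 to 20.3 CPM in controls and 4.97 to 5.71 CPM in cKO mice. Reads over the whole *Mef2c* gene, which include exons that Cre leaves in place and so do not check the deletion, were at 772 to 800 CPM in controls and 1231 to 1468 CPM in cKO mice. Markers of the labelled tissue were present in both genotypes, with 6 pyramidal neuron markers summing to 5613 to 6699 CPM in controls and 5786 to 6861 CPM in cKO mice. All 6 layer 4 markers and 5 of 6 layer 2/3 markers were lower in the cKO mice. In bulk tissue fewer cells of a type and less RNA per cell cannot be told apart.

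The non-clustered protocadherins split by genotype. *Pcdh17*, *Pcdh7*, *Pcdh10* and *Pcdh1* were higher in *Mef2c* cKO cortex and *Pcdh20* and *Pcdh19* were lower, past the study's cut-offs of an adjusted p under 0.05 and an absolute log2 fold change above 0.3. *Pcdh9*, *Pcdh11x*, *Pcdh8* and *Pcdh18* did not pass. All 10 members exceeded the expression minimum of 0.5 CPM in every mouse, so none entered the test through 1 genotype only. The 6 of 10 members past the cut-offs stand beside 13.6% of all tested genes, the 4 higher ones beside 5.88% and the 2 lower ones beside 7.77%. The same 6 genes were the members whose genotypes did not overlap, beside 33.8% of all tested genes. The median log2 fold change of the 10 members was -0.04 and that of all tested genes 0.01. For a single gene the exact two-sided permutation test of 3 mice against 3 cannot go below p = 0.10, which was its value for each of the 6.

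**Figure D2:**
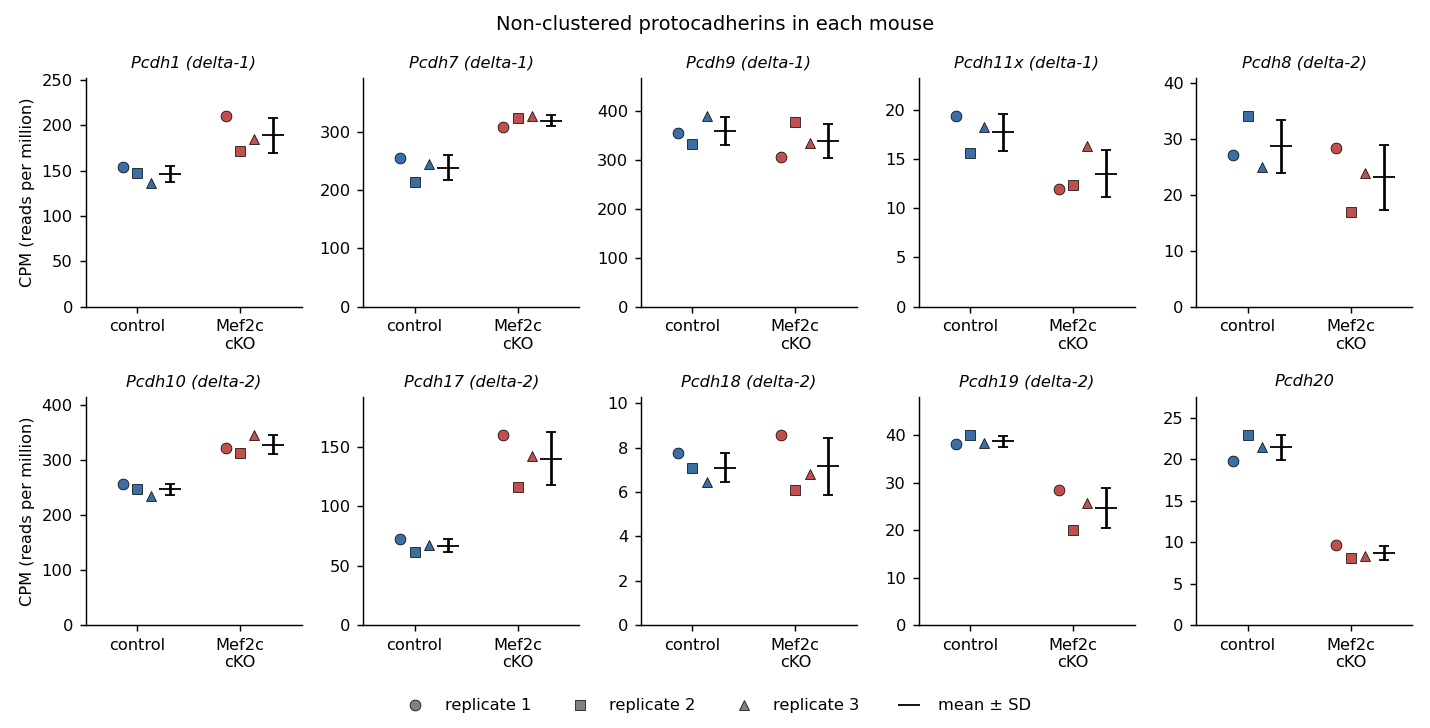
CPM of each non-clustered protocadherin in each mouse (linear axes from 0), controls in blue and *Mef2c* cKO in red, with the mean ± SD (n = 3) beside each group. The groups are apart for *Pcdh1*, *Pcdh7*, *Pcdh10*, *Pcdh17*, *Pcdh19* and *Pcdh20* and overlap for *Pcdh8*, *Pcdh9*, *Pcdh11x* and *Pcdh18*; *Pcdh17* shows the largest rise, from 66.9 to 140 CPM, and *Pcdh20* the largest fall, from 21.4 to 8.71 CPM.

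*Pcdh20* had the largest change of the family. It encodes a homophilic protocadherin that is usually placed outside both delta subgroups. Its level was 19.8, 22.9 and 21.4 CPM in control replicates 1, 2 and 3 and 9.68, 8.12 and 8.33 CPM in *Mef2c* cKO replicates 1, 2 and 3. Every cKO mouse was below every control, with a gap wider than the spread of either group. The mean fell from 21.4 ± 1.52 to 8.71 ± 0.846 CPM (SD, n = 3 each), a ratio of 0.408, and the log2 fold change was -1.29 (standard error 0.10, adjusted p = 4.5e-05). Only 200 of the 14624 tested genes had a lower log2 fold change. These levels rest on 157 to 1129 reads, and counting error alone gives up to 7.98% in the shallowest mouse.

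*Pcdh17*, a delta-2 member that sorts axons and organizes presynaptic assembly in the circuits where it has been studied, had the largest rise. Its level was 72.3, 61.1 and 67.4 CPM in the control replicates and 160, 116 and 142 CPM in the cKO replicates. The lowest cKO mouse was well above the highest control. The mean went from 66.9 ± 5.63 to 140 ± 22.4 CPM (n = 3 each), a ratio of 2.09 and a log2 fold change of 1.05 (standard error 0.11, adjusted p = 2.6e-04). A higher log2 fold change was found in 167 of the tested genes. The cKO mice varied more than the controls, with a coefficient of variation of 16.1% against 8.42%, and counting error was at most 2.11%.

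*Pcdh17* and *Pcdh20* lie on the same chromosome and moved apart. In mm9, *Pcdh17* occupies bases 84843370 to 84936867 of chromosome 14 (plus strand) and *Pcdh20* bases 88864554 to 88871203 (minus strand), with 3.93 megabases between them. Of the 4 annotated genes in that interval only *Tdrd3*, which encodes a reader of methylated arginine, was tested, and its log2 fold change was -0.20 (standard error 0.07, adjusted p = 0.096). *Tdrd3* is named for its place and was chosen after its values were seen. Within each mouse the ratio of *Pcdh17* to *Pcdh20* CPM, which needs no scaling between mice, was 3.65, 2.67 and 3.14 in the controls and 16.6, 14.3 and 17.1 in the cKO mice. The genes are the largest rise and the largest fall of the family, each without overlap in CPM. Their ratio therefore could not overlap and adds no further support. *Pcdh8* (80166587 to 80171119) and *Pcdh9* (93414731 to 94287951), both on the minus strand of this chromosome, flank the pair and did not pass the cut-offs.

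The promoter sequences of the members are shown for the 3 genes with the largest absolute log2 fold change, *Pcdh20*, *Pcdh17* and *Pcdh19*, since the deleted factor binds DNA. They are RefSeq sequences of build GRCm38.p6, 5′ to 3′ on the strand of the gene, from 250 bases before to 50 bases after the annotated start. Capitals mark matches, on either strand, to the MEF2 element, to the CCAAT box, to GGGCGG and to TATAAA, and a match to the opposite strand appears as its reverse complement. No 2 different motifs overlapped in them. *Pcdh20* is at chr14:88471347-88471646 (minus strand), *Pcdh17* at chr14:84443313-84443612 (plus strand) and *Pcdh19* at chrX:133688944-133689243 (minus strand).
Pcdh20: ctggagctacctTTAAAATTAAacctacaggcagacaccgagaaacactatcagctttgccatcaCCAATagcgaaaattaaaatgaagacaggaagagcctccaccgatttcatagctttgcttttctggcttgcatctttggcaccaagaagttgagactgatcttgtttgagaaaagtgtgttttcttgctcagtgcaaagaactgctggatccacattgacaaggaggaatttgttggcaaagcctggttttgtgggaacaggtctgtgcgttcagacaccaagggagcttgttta
Pcdh17: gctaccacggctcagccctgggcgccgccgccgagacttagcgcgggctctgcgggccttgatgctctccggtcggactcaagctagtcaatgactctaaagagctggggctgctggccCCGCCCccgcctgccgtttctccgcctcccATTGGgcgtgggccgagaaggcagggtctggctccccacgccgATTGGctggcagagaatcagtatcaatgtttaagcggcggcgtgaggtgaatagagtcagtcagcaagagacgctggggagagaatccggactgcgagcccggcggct
Pcdh19: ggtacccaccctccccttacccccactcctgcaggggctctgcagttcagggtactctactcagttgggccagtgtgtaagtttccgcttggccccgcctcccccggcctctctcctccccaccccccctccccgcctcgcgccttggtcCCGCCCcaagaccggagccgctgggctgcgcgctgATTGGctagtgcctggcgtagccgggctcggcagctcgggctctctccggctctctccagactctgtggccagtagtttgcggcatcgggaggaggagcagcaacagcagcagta

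Of the 10 members, 8 had an entry in the promoter table and *Pcdh1* and *Pcdh11x* had none. The MEF2 element, the 10-base consensus bound by MEF2 proteins, was found in the *Pcdh20* promoter alone, at positions -238 to -229 from the start as TTAAAATTAA, a match that reads on both strands. It was present in 3.19% of all 32851 promoters of this length. *Pcdh20* also had the lowest share of G and C of these members, 43.7%, a value that 19.2% of all promoters did not exceed, whereas the other members ranged from 54.3% (*Pcdh8*) to 67.7% (*Pcdh19*) and the median over all promoters was 52.7%. It held 4 CG pairs, against 26 in *Pcdh17* and 18 in *Pcdh19*. CCAAT was found in 7 of the 8 members (37.4% of all promoters), all but *Pcdh7*, and GGGCGG in 4, *Pcdh10*, *Pcdh17*, *Pcdh18* and *Pcdh19* (35.7%). TATAAA was found in *Pcdh8* alone, at -30 to -25 (13.6%). These matches describe the letters in this window and are not binding sites shown by the data.

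*Pcdh19*, the delta-2 gene on the X chromosome whose human counterpart is mutated in a female-limited epilepsy with intellectual disability, was the other member that fell. Its level was 38.1, 40.1 and 38.3 CPM in the control replicates and 28.4, 20 and 25.7 CPM in the cKO replicates. All cKO mice were below all controls. The controls were tightly grouped at 38.8 ± 1.14 CPM, and the cKO mice were at 24.7 ± 4.28 CPM (n = 3 each), a ratio of 0.637. The log2 fold change was -0.66 (standard error 0.12, adjusted p = 0.004), and 616 tested genes had a lower one. *Pcdh19* occupies bases 130117402 to 130223532 of chromosome X (mm9, minus strand), and 1 annotated non-coding gene on the plus strand overlaps its exons. The library was directional, but the sources used here do not state whether reads were counted by strand, so reads of that partner cannot be told apart from those of *Pcdh19*.

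*Pcdh10*, a delta-2 member that binds the WAVE complex and acts in the MEF2-dependent removal of excitatory synapses, was higher in the cKO mice. It was at 256, 247 and 235 CPM in the control replicates and 322, 312 and 345 CPM in the cKO replicates, without overlap. The means were 246 ± 10.3 and 327 ± 17.0 CPM (n = 3 each), a ratio of 1.33. The log2 fold change of 0.41 (standard error 0.06, adjusted p = 0.002) was within the range of the middle 90% of tested genes, whose 5th and 95th percentiles were -0.59 and 0.48. In mm9 it occupies bases 45182320 to 45238488 of chromosome 3 (plus strand).

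The remaining delta-2 members, *Pcdh8* and *Pcdh18*, did not pass the cut-offs. *Pcdh8*, also called arcadlin, is induced by neuronal activity and promotes the uptake of N-cadherin from the synapse. It was at 27.1, 34.0 and 24.9 CPM in the controls and 28.4, 16.9 and 23.9 CPM in the cKO mice, and the groups overlapped. Its log2 fold change was -0.33 with the largest standard error of the family (0.18, adjusted p = 0.274). *Pcdh18* had the fewest reads of the members, 118 to 368 per mouse, and was at 7.76, 7.07 and 6.46 CPM in the controls and 8.58, 6.11 and 6.80 CPM in the cKO mice. Its log2 fold change was 0.00 with a standard error of 0.15 (adjusted p = 0.993), and counting error alone reached 9.21% in the shallowest mouse.

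Among the delta-1 members, *Pcdh7* and *Pcdh1* rose, *Pcdh9* and *Pcdh11x* did not pass the cut-offs, and none fell past them. *Pcdh7*, whose product binds protein phosphatase 1, was at 255, 214 and 245 CPM in the control replicates and 308, 323 and 326 CPM in the cKO replicates. The groups did not overlap, and the cKO mice were the more alike, with a coefficient of variation of 3.0% against 9.09%. The means were 238 ± 21.6 and 319 ± 9.57 CPM (n = 3 each), a ratio of 1.34 and a log2 fold change of 0.43 (standard error 0.07, adjusted p = 0.003). In mm9 it occupies bases 58109260 to 58520590 of chromosome 5 (plus strand).

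*Pcdh1*, an adhesion protein also known from airway epithelium, was at 154, 148 and 137 CPM in the control replicates and 210, 172 and 185 CPM in the cKO replicates. The groups did not overlap, but the lowest cKO mouse was close to the highest control. The means were 146 ± 8.70 and 189 ± 19.6 CPM (n = 3 each), a ratio of 1.29 and a log2 fold change of 0.36 (standard error 0.08, adjusted p = 0.014). This call was the least firm of the 6. The log2 fold change was 0.28, under the fold cut-off, without *Mef2c* cKO replicate 1 (adjusted p = 0.037), and 0.32 without control replicate 3 (adjusted p = 0.053). An annotated non-coding gene on the opposite strand overlaps 1 or more of its exons, as for *Pcdh19*.

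*Pcdh9*, a delta-1 member with a role in cortical and sensory circuits, was at 355, 332 and 388 CPM in the controls and 305, 376 and 334 CPM in the cKO mice. The ranges overlapped widely, and the log2 fold change was -0.08 (standard error 0.09, adjusted p = 0.575). *Pcdh11x*, an X-linked member at bases 117403868 to 118024228 (plus strand), was at 19.3, 15.6 and 18.2 CPM in the controls and 11.9, 12.3 and 16.3 CPM in the cKO mice. Only cKO replicate 3 lay within the control range, above the lowest control. The log2 fold change was -0.40 (standard error 0.14, adjusted p = 0.082), and without that mouse it was -0.54 (adjusted p = 0.017), past the cut-offs.

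**Figure D3:**
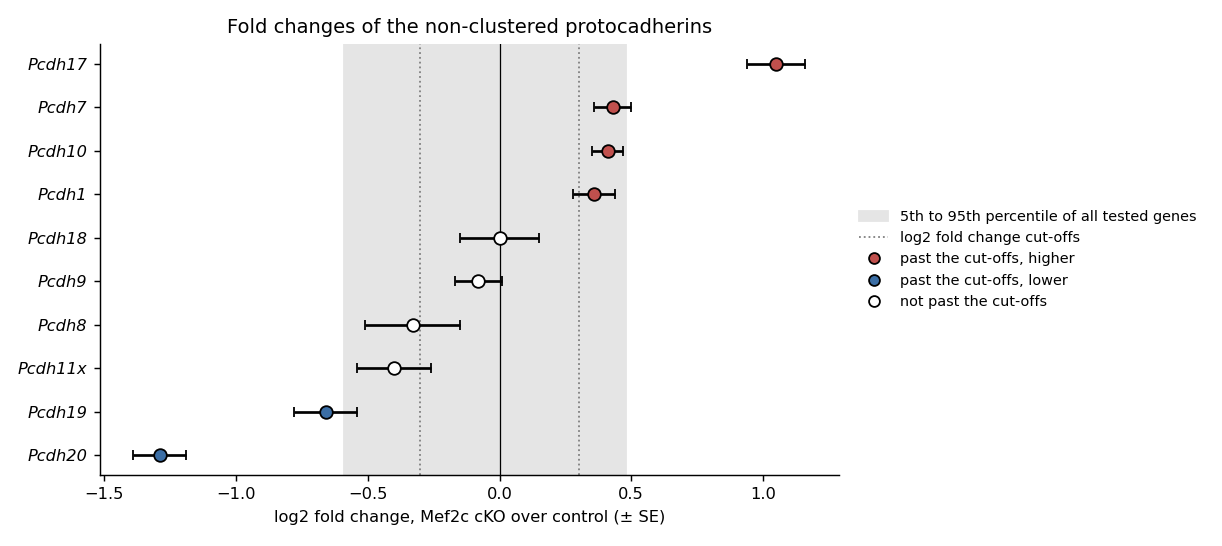
Log2 fold change of each member, *Mef2c* cKO over control, with its standard error from limma (n = 3 mice each); the grey band is the 5th to 95th percentile of all 14624 tested genes (-0.59 to 0.48) and dotted lines are the fold cut-offs of 0.3. *Pcdh17* (1.05) lies above the band, *Pcdh19* (-0.66) and *Pcdh20* (-1.29) lie below it, and the other 7 lie inside.

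The 6 called members had the same direction at both ages. This follows from their genotypes not overlapping, which fixes the direction in any split of the mice, and is no separate support. In the 14-week pair, 1 mouse of each genotype, the log2 difference between cKO and control was 1.15 for *Pcdh17*, 0.45 for *Pcdh1*, 0.34 for *Pcdh10*, 0.27 for *Pcdh7*, -0.42 for *Pcdh19* and -1.03 for *Pcdh20*. In the 12-week mice, 2 of each genotype, it was 1.00, 0.32, 0.45, 0.50, -0.79 and -1.42 for the same genes. Of the other members, *Pcdh9* (-0.22 and -0.02) and *Pcdh11x* (-0.69 and -0.25) kept their direction, whereas *Pcdh8* (0.07 and -0.53) and *Pcdh18* (0.14 and -0.07) did not. With 1 mouse per genotype at 14 weeks, no difference between the ages was tested.

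To compare levels between genes, CPM was divided by the annotated exon length of each gene. In control cortex the order of the mean levels in CPM per kilobase was *Pcdh9* (96.5), *Pcdh7* (38.4), *Pcdh10* (23.1), *Pcdh1* (17.3), *Pcdh8* (7.18), *Pcdh17* (7.04), *Pcdh20* (4.08), *Pcdh19* (3.77), *Pcdh11x* (1.95) and *Pcdh18* (1.37). The control mice overlapped between *Pcdh8* and *Pcdh17* and between *Pcdh20* and *Pcdh19*, and were apart for every other pair of neighbours. In cKO cortex the mean level of *Pcdh17* per kilobase was 14.7, above *Pcdh8* (5.78) without overlap, and that of *Pcdh20* was 1.66, below *Pcdh19* (2.40) and overlapping *Pcdh11x* (1.49). The order rests on the annotation: the *Pcdh9* exons add up to 3714 bases there and those of *Pcdh10* to 10645, and a gene whose exons are annotated too short is placed too high.

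**Figure D4:**
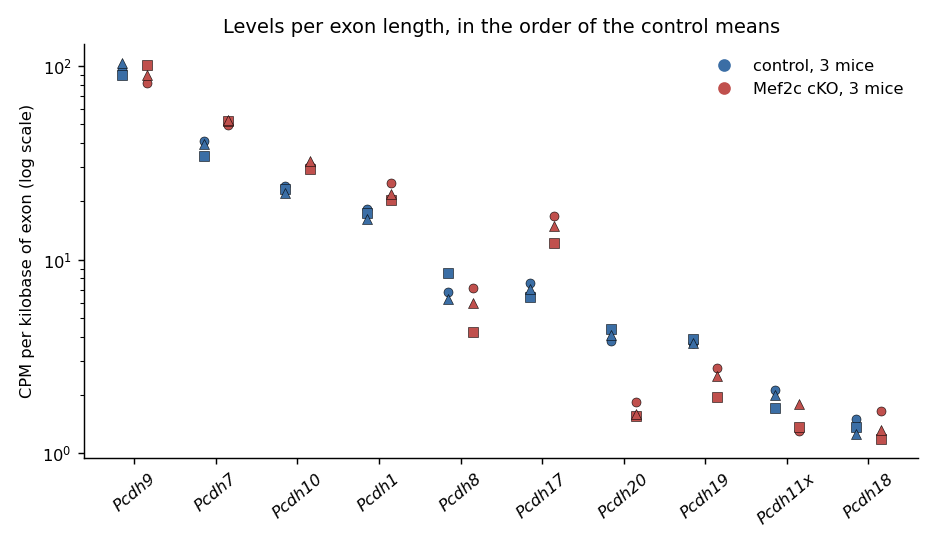
CPM per kilobase of annotated exon (log axis) of each member in each mouse, ordered by the control mean; blue points are control and red points *Mef2c* cKO mice, 3 each. Levels fall from 96.5 (*Pcdh9*) to 1.37 (*Pcdh18*) in controls, and *Pcdh17* moves above *Pcdh8*, from 7.04 to 14.7, while *Pcdh20* drops from 4.08 to 1.66.

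Summed per kilobase, the 10 members were at 204, 191 and 207 in the control replicates and 219, 225 and 225 in the cKO replicates. The sum was thus slightly higher in every cKO mouse, with a ratio of means of 1.11. The 5 delta-2 genes summed to 42.5 ± 1.81 in controls and 54.9 ± 5.29 in cKO mice (ratio 1.29), without overlap, since their lowest cKO mouse was at 48.9 and their highest control at 43.6. Within that sum the means of *Pcdh10* (23.1 to 30.7) and *Pcdh17* (7.04 to 14.7) rose. Those of *Pcdh8* (7.18 to 5.78) and *Pcdh19* (3.77 to 2.40) were lower, and the median log2 fold change of the 5 genes was 0.0. The 4 delta-1 genes were at 154 ± 9.85 and 166 ± 8.38 (ratio 1.08) and overlapped. This overlap came with the division by exon length, since the summed CPM of the delta-1 genes were 783, 709 and 788 in controls and 836, 882 and 861 in cKO mice, without overlap. As shares of the family sum, *Pcdh17* took 3.36 to 3.72% in controls and 5.41 to 7.72% in cKO mice, *Pcdh7* took 18.0 to 20.1% and 22.7 to 23.4%, and *Pcdh20* took 1.85 to 2.29% and 0.689 to 0.846%. *Pcdh9* took 46.8 to 50.5% in controls and 37.6 to 44.9% in cKO mice. These shares are tied to each other, so 1 gene's higher share lowers the rest.

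The markers of cortical cells moved with genotype beside these genes. All 6 layer 4 markers were lower in the cKO mice (median log2 fold change -2.10, from -5.04 for *Rspo1* to -0.60 for *Hsd11b1*), and their summed level was 157 to 164 CPM in controls and 43.5 to 50.2 CPM in cKO mice. Of 6 layer 2/3 markers 5 were lower past the cut-offs, and the list median was -1.57, with the lowest value -1.97 for *Stard8*. The other marker, *Otof*, went the opposite way (0.34) and did not pass. The layer 2/3 sums were 709 to 801 CPM in controls and 275 to 342 CPM in cKO mice. The fall in *Pcdh20*, a log2 fold change of -1.29, was smaller than the median of either list. As a ratio of cKO to control means, *Pcdh20* (0.408) was near the layer 2/3 sum (0.406), and the layer 4 sum was at 0.294. The part of these layers in the results of *Pcdh20* and *Pcdh19* was not tested. No marker of these 2 lists was at 0 in any mouse.

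Among markers of other cells, 1 of 6 oligodendrocyte genes, *Mobp*, was past the cut-offs (log2 fold change 0.64), the list median was 0.53, and the summed level was 3105 to 5132 CPM in controls and 5043 to 6470 CPM in cKO mice. *Pcdh17*, *Pcdh7*, *Pcdh10* and *Pcdh1* rose in the same mice. By mouse, the oligodendrocyte sum was 4365, 3105 and 5132 CPM in control replicates 1, 2 and 3 and 5043, 6366 and 6470 CPM in cKO replicates 1, 2 and 3. *Pcdh7* was lowest in the same control and the same cKO mouse as that sum (214 and 308 CPM) and highest in cKO replicate 3 (326 CPM), as *Pcdh10* was (345 CPM), whereas *Pcdh17* and *Pcdh1* were highest in cKO replicate 1 (160 and 210 CPM). Among controls, however, *Pcdh7* was highest in replicate 1 (255 CPM). *Pcdh10* was lowest in control replicate 3 (235 CPM), where that sum was highest, and in cKO replicate 2 (312 CPM). The part of oligodendrocyte RNA in these rises was not tested. Other lists changed in few members: 2 of 6 layer 6 genes were higher, 2 of 5 tested layer 5 genes lower, 3 of 6 pyramidal genes higher, 1 of 7 interneuron genes higher and 1 lower, 2 of 6 astrocyte genes higher and 1 lower, 1 of 4 oligodendrocyte precursor genes higher, and 1 of 4 thalamic genes higher and 1 lower. By limma none of 6 microglial, 6 endothelial and pericyte, 4 striatal or 2 choroid plexus markers passed the cut-offs, where 2, 1, 0 and 1 had an unadjusted p under 0.05, and by limma-voom 0 passed. The striatal sum was 85.2, 115 and 85.0 CPM in control replicates 1, 2 and 3. It was 168, 55.1 and 137 CPM in cKO replicates 1, 2 and 3. Among the cKO mice *Pcdh1*, *Pcdh8*, *Pcdh17*, *Pcdh18*, *Pcdh19* and *Pcdh20* were in the same order as that sum. Of these, only *Pcdh8* was so among the controls too. The part of striatal RNA in these results was not tested.

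**Figure D5:**
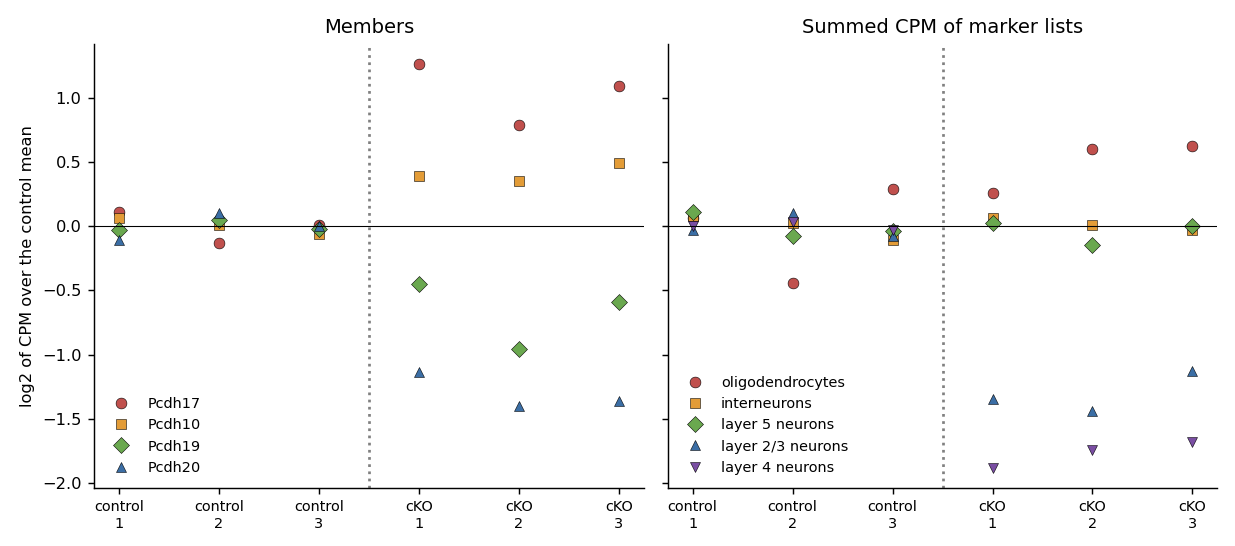
Log2 of CPM over the control mean in each mouse, for 4 members (left) and for the summed CPM of 5 marker lists (right); each point is 1 mouse. *Pcdh17* lies between 0.79 and 1.26 and *Pcdh20* between -1.40 and -1.14 in the cKO mice, where the layer 4 sum lies between -1.88 and -1.68, the layer 2/3 sum between -1.44 and -1.13, and the oligodendrocyte sum between 0.26 and 0.62 after -0.44 to 0.29 in controls.

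The known partners of these proteins were followed in the same fit. Of 24 tested genes that encode the WAVE complex, *Pcdh10*-dependent synapse removal, *Pcdh8* signalling, phosphatase and other tail binders and beta-catenin, 1 was higher and 1 lower, beside 5.88% and 7.77% of all tested genes, with a median log2 fold change of 0.05. *Mef2d*, a MEF2 factor that the deletion leaves intact, was at 140, 136 and 140 CPM in controls and 181, 181 and 169 CPM in cKO mice (0.35, standard error 0.05, adjusted p = 0.002 by limma). The paper describes *Mef2d* expression as not significantly changed in the mutants. It cites there a figure that holds both its RNA-seq, called by DESeq, and quantitative PCR. *Mapk14*, the p38 kinase downstream of *Pcdh8* in N-cadherin uptake, was at 146, 163 and 161 CPM and 131, 125 and 122 CPM (-0.31, standard error 0.06, adjusted p = 0.008). By limma none of the 9 WAVE complex genes and none of the 5 tail binders passed the cut-offs, where 4 and 0 had an unadjusted p under 0.05, and by limma-voom 0 of either passed. *Wasf1*, a WAVE complex subunit, missed the fold cut-off alone (log2 fold change 0.26, adjusted p = 0.009). The largest log2 fold change of the list was that of *Fmr1*, which encodes the RNA-binding protein FMRP, at -1.03 (standard error 0.32, adjusted p = 0.061). *Fmr1* was at 96.2, 82.1 and 77.1 CPM in controls and 28.8, 31.1 and 79.8 CPM in cKO mice, so that cKO replicate 3 lay within the control range. *Wasf1* and *Fmr1* were chosen after their values were seen.

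Other cadherin families had genes past the cut-offs in both directions. Of 18 classical cadherins 3 were higher and 3 lower (median 0.08), beside 5.88% higher and 7.77% lower among all tested genes. *Cdh9*, which promotes specific synapses in the hippocampus, was at 18.4, 19.8 and 19.0 CPM in controls and 62.8, 63.9 and 56.6 CPM in cKO mice (log2 fold change 1.67), and *Cdh6* at 28.2, 27.0 and 26.9 CPM and 6.75, 4.81 and 6.67 CPM (-2.17). *Cdh24* (0.94) and *Cdh7* (-0.75) were the next largest. Of 13 tested atypical cadherins 2 were higher and 3 lower (median -0.10), led by *Fat3* (-0.50), *Clstn2* (0.46), *Celsr2* (0.34) and *Clstn1* (-0.33). The members' share past the cut-offs, 6 of 10, was not tested against these families. Of 58 rows of clustered protocadherins, 57 were listed at 0 in every mouse, so that no comparison with the clustered genes could be made.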

How the data were processed

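Poly(A) RNA-seq of somatosensory cortex from 3 control and 3 *Mef2c* cKO mice was analysed from 6 deposited tables, 1 per mouse. For these tables the authors used TopHat and Bowtie for alignment to mm9 and HTSeq for gene counts, from which they derived the deposited RPKM; versions were not given in the sources used here. Each deposited RPKM equals reads divided by the total and by a length. When genes are sorted by Entrez ID as text, these lengths recur every 130, 249 and 232 genes in control replicates 1, 2 and 3 and every 130, 65 and 296 genes in cKO replicates 1, 2 and 3. At the place given by the gene's ID, 99.23 to 99.44% of values above 0 were whole (tolerance 0.01). Other genes were looked for at all places of the cycle. Of these, 113 were found at another place, and 150 rows were not placed. In all, reads were recovered for 99.82 to 99.95% of values above 0, with totals of 19326365 to 54128334 reads. Genes with few reads carry their counting error, and the counting-error percentages given with the members cover that error only. No test included the 92 rows that lack a gene name (0.057 to 0.085% of reads).

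CPM were fitted as log2(CPM + 0.1) with limma 3.58.1 (R 4.3.3; lmFit, eBayes with a variance trend, two-sided, Benjamini-Hochberg over 14624 genes). A gene was tested when CPM exceeded 0.5 in every mouse of at least 1 genotype and at least 2 counts per genotype were recovered. Calls needed an adjusted p under 0.05 and an absolute log2 fold change above 0.3. The pseudocount understates changes of low genes. Recovery and fit were tested on simulated tables, in which all 6 totals were found. There an adjusted p under 0.05 by limma was reached by 26.0% of genes with a log2 change of 0.5. At a log2 change of 1.0 it was reached by 98.0%. The simulated spread between mice was set, not estimated from these mice, and far fewer genes were changed than passed here. These percentages therefore do not give the power of the fit in these data. A gene that did not pass is still not shown to be unchanged. The labels give no litter or batch for a replicate number, replicate 1 of both genotypes shares its age, and the fit has no pairing. P-values measure the spread between these mice.

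The members and gene lists were chosen with earlier results of these data known. All members are named. From the partner and cadherin lists at most 4 genes past the cut-offs are named by absolute log2 fold change, and from a marker list its lowest and highest members where the list moved with a member. Coordinates and exon lengths are of the gencode annotation of NCBIM37 (mm9), not the authors' annotation, and promoters of RefSeq (GRCm38.p6). Python 3.11.15, numpy 2.4.6, pandas 2.3.3, numba 0.67.0 and matplotlib 3.10.9 were used. The alternatives were 2 other pseudocounts, 2 other filters, another scaling, no variance trend, limma-voom on the recovered counts, a replicate block, an age term, the deposited RPKM and leaving out each mouse.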

Additional observations from a re-analysis of the deposited data

How the results depend on the processing

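*Pcdh7*, *Pcdh10*, *Pcdh17*, *Pcdh19* and *Pcdh20* kept their direction and stayed past the cut-offs under all 15 alternatives that used the recovered counts. *Pcdh8* and *Pcdh9* stayed outside the cut-offs under the same 15. Mice of equal number did not deviate together from their group means (r = -0.176, -0.108 and -0.082 across genes for replicates 1, 2 and 3), and no mouse correlated best with its own number. With the replicate block 6 members and 1694 genes in all passed, against 6 and 1996, and no member's call changed. Leaving out 1 mouse gave 5 to 7 members and 1656 to 1867 genes, with log2 fold changes of 0.94 to 1.18 for *Pcdh17*, -1.36 to -1.24 for *Pcdh20*, -0.77 to -0.52 for *Pcdh19*, 0.37 to 0.44 for *Pcdh10*, 0.35 to 0.48 for *Pcdh7*, 0.28 to 0.43 for *Pcdh1*, -0.54 to -0.31 for *Pcdh11x*, -0.50 to -0.12 for *Pcdh8*, -0.16 to -0.01 for *Pcdh9* and -0.13 to 0.11 for *Pcdh18*. *Pcdh18* was negative without *Mef2c* cKO replicate 1 (-0.13) and without control replicate 3 (-0.06). *Pcdh1* also missed the threshold with no variance trend (0.36, adjusted p = 0.054 by limma). The deposited RPKM, taken as they stand, gave 14 genes of 7974 (0.176%) and 0 of 9 tested members by limma, of which 2 had an unadjusted p under 0.05. There *Pcdh7* (-0.12), *Pcdh17* (-0.69) and *Pcdh18* (-1.95) had the opposite sign, and *Pcdh1* (0.79), *Pcdh10* (0.54), *Pcdh19* (-0.95) and *Pcdh20* (-2.55) did not pass; their lengths differ between mice by construction. Without division by exon length the cKO to control ratios of the sums were 1.13 for delta-1 and 1.35 for delta-2, and neither sum then overlapped between genotypes.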
